A study of Mus musculus with 24 samples.

Results

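Male C57Bl/6J mice ate a high-fat diet (HFD) made with corn oil or one that supplied the fatty acids EPA and DHA, and mRNA of their white fat (WAT) was compared between these diets. The arrays were chosen by tissue and diet label alone, which gave 4 arrays on EPA/DHA and 4 on corn oil, 8 of the 24 arrays of the study. The other 16 were WAT of mice on a low-fat diet and brown adipose tissue (BAT) on all 3 diets, again 4 arrays a group. Both high-fat groups shared the strain, the sex and the high fat content, and the labels name no genetic change, so the labelled difference is the kind of fat. Each diet was represented by 4 mice picked to stand for their group in body weight, plasma triglyceride and plasma cholesterol. The labels give neither the WAT depot nor the length of feeding, and their RNA protocol speaks of skeletal muscle although every tissue label says adipose tissue. The values describe mRNA in pieces of whole tissue, in which fewer cells of a type and less RNA per cell cannot be told apart.

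White fat stores triglyceride in adipocytes and secretes hormones such as leptin and adiponectin, and its blood vessels, fibroblasts and immune cells respond to overfeeding with matrix deposition and inflammation. Corn oil is rich in linoleic acid, an omega-6 fatty acid and precursor of arachidonic acid. EPA and DHA (eicosapentaenoic and docosahexaenoic acid) are long-chain omega-3 fatty acids of fish oil, which are known as ligands of nuclear receptors of the PPAR family and of the fatty acid receptor encoded by Ffar4, and as substrates that compete with arachidonic acid.

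Values are log2 expression of 1 probe per gene. The lowest value was 6.95 and the highest 14.79, and a probe with no signal above background reads about 7. Differences are EPA/DHA minus corn oil in log2 units with their standard error, tested by limma with Benjamini-Hochberg adjustment over 27168 probes, and a gene is called at an adjusted p under 0.05. The low-fat levels are given beside them as a background. No 2 of the 12 WAT arrays correlated above 0.996 over the probes. The tissue label was borne out by the adipocyte markers, whose mean level per array ran from 11.41 to 11.57 on corn oil and from 11.44 to 11.70 on EPA/DHA. Adipoq, the adiponectin gene, read 13.99 to 14.35 on corn oil and 14.17 to 14.42 on EPA/DHA, and Lep, the leptin gene, 14.17 to 14.70 and 13.42 to 14.21. Both lay close to the top of the scale, where differences can be understated. A low reading does not show that a gene is silent. The best probe for the adipocyte fatty acid binding protein Fabp4 averaged only 7.32 on corn oil and 7.39 on EPA/DHA.

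Some arrays stood apart in markers of other tissues. Ucp1, the uncoupling protein of brown fat, read 7.11, 7.13, 7.18 and 9.38 on corn oil and 7.20, 10.63, 7.18 and 7.76 on EPA/DHA. Corn-oil replicate 4 and EPA/DHA replicate 2 were far above the other 6, and the same 2 arrays were highest within their diet for the brown-fat genes Cidea (9.83 and 12.09), Cox7a1 (9.60 and 11.06) and Fabp3 (8.35 and 9.50). Cidea was also higher in the other EPA/DHA arrays (8.98 to 9.63) than in the other corn-oil arrays (7.56 to 8.08), unlike Cox7a1, which overlapped. The Cidea difference of 1.697 ± 0.705 was the largest rise of all genes tested but was not called (limma adjusted p = 0.288). Of 20 genes of brown adipocyte identity 1 was called higher and 14 differences were positive. Their median was 0.159, or 0.058 without the 2 arrays of raised Ucp1. The mean of 18 liver-type markers such as Serpina1c and Apoa1 ran from 9.19 to 12.05 on corn oil and from 9.02 to 11.36 on EPA/DHA. Of these markers 17 of 18 were lower on EPA/DHA, with a median difference of -0.99, and none was called by limma or had an unadjusted p under 0.05. The macrophage markers averaged 9.04 to 9.45 on corn oil and 8.76 to 9.36 on EPA/DHA, with 0 of 23 called and 3 lower at an unadjusted p under 0.05. The 14 endothelial markers averaged 9.66 to 9.76 on corn oil and 9.49 to 9.54 on EPA/DHA. The 2 ranges do not overlap, yet 0 of the 14 were called and 8 were lower at an unadjusted p under 0.05. Counts below are also given without the 2 arrays of raised Ucp1 and with the liver marker level as a covariate, where these matter.

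**Figure D1:**
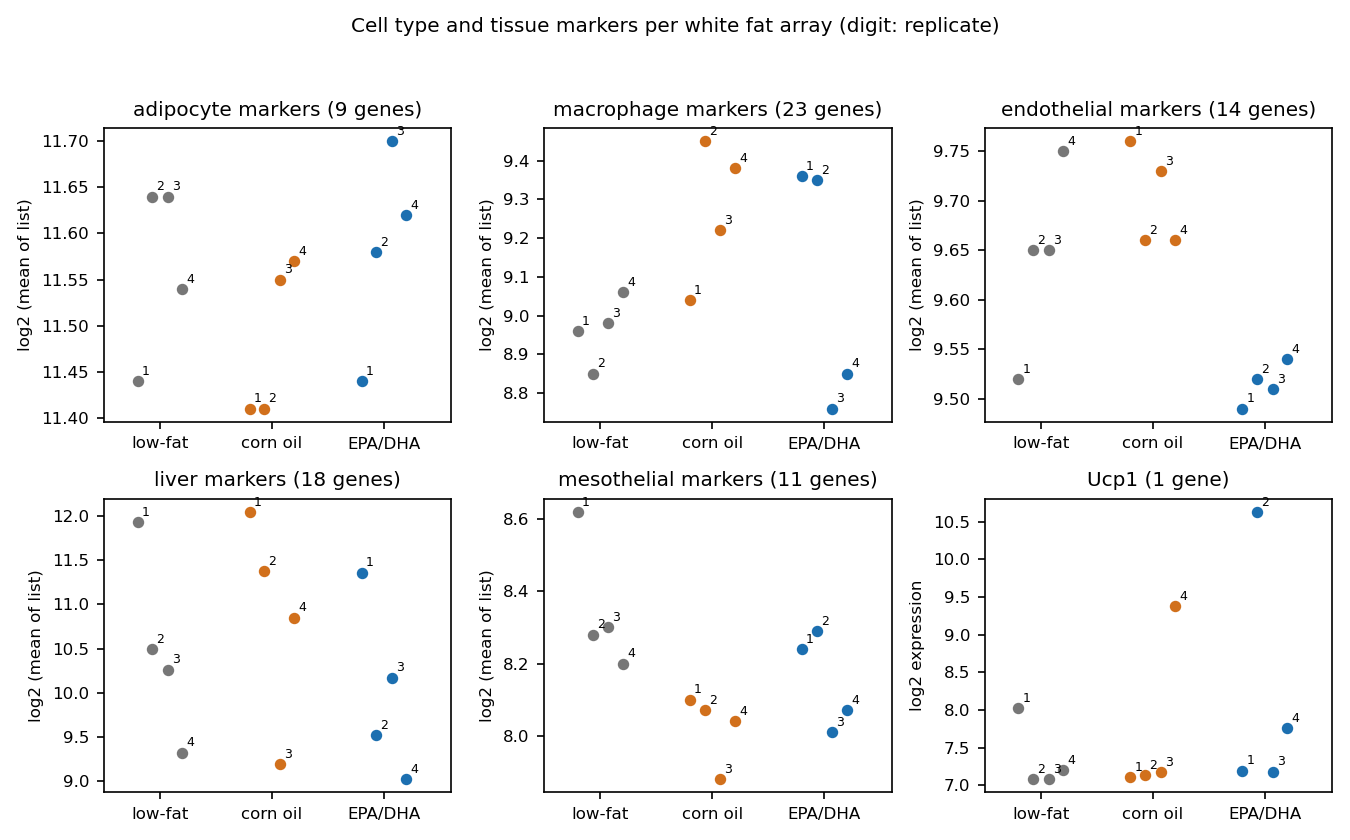
Mean log2 level of 5 marker lists and the log2 level of Ucp1 in each of the 12 white fat arrays, by diet, with the replicate number beside each point. Ucp1 stood out in EPA/DHA replicate 2 (10.63) and corn-oil replicate 4 (9.38), the liver markers spread widely within each diet, and the endothelial markers were lower in all 4 EPA/DHA arrays (9.49 to 9.54) than in all 4 corn-oil arrays (9.66 to 9.76).

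Between the 2 high-fat diets 313 genes of 13349 tested were called (2.34%), 157 higher on EPA/DHA (1.18%) and 156 lower (1.17%). These shares are the background to the count of calls in each list below. At an unadjusted p under 0.05 there were 2348. The median difference over all genes was 0.00. The normalised arrays share nearly the same distribution of values, so this median cannot show whether a direction prevailed. The 4 values of each diet did not overlap for 706 higher (5.29%) and 661 lower genes (4.95%), together 10.2% of those tested. The count of calls was smaller without the 2 arrays of raised Ucp1 (192, of which 131 were among the 313) and with the liver marker level as a covariate (198, of which 171 were among the 313). It also depended on single arrays. It was 170, 170, 155 and 198 without corn-oil replicates 1, 2, 3 and 4, and 223, 311, 118 and 137 without EPA/DHA replicates 1, 2, 3 and 4. The 15 largest rises included genes of fat and sugar metabolism and of mitochondria (Ces1f, Thrsp, Gpd2, Tkt, Sfxn1, Eci3 and Pdhb) beside others of varied function (such as Parm1, S100a1, Uck1 and Fmo1). The 15 largest falls included an inflammation-induced ubiquitin-like protein (Ubd), a serotonin-synthesis enzyme (Tph2), eosinophil-type ribonucleases (Rnase2a and Ear3) and matrix genes (Col16a1 and Pcolce2). Others were of varied function (such as Lbp, Sfrp5, Nup210 and Mylk). Class II antigen presentation genes were not among those 15, and the largest of their falls was -0.90 (H2-DMb2).

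**Figure D2:**
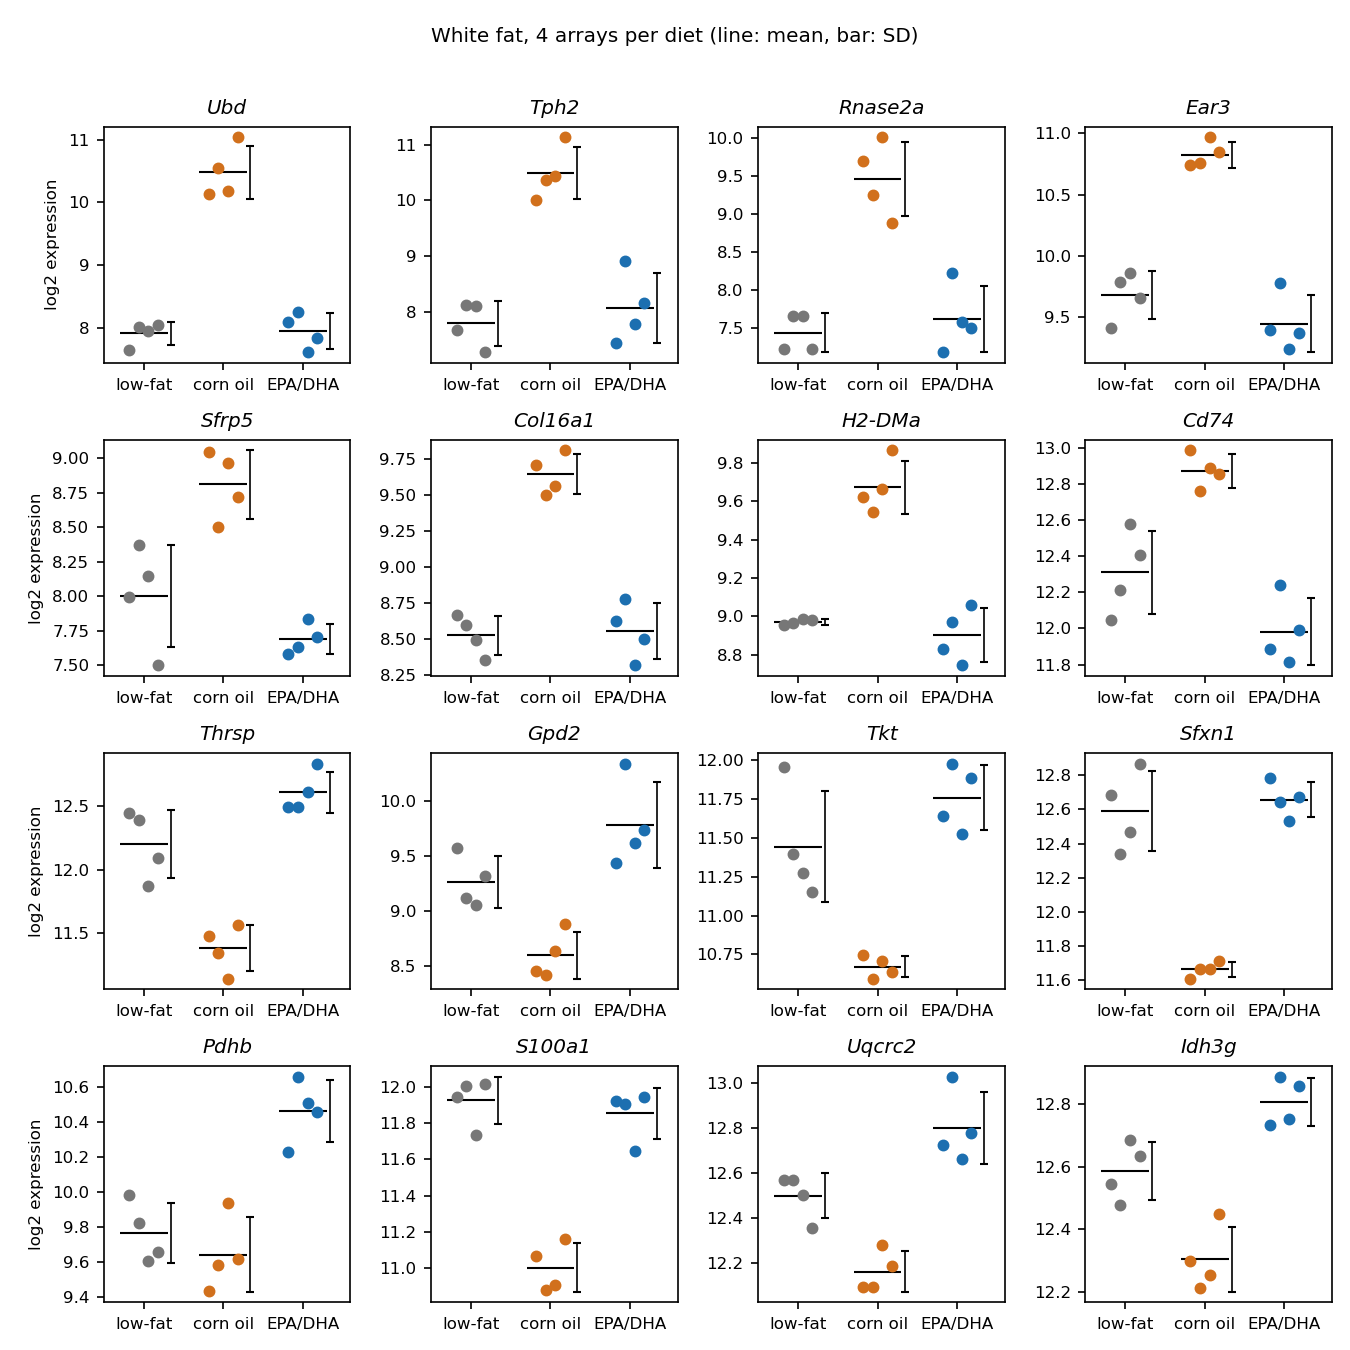
Log2 expression of 16 called genes in each of the 4 white fat arrays per diet, with the group mean (line) and SD (bar). In each panel the corn-oil and EPA/DHA points do not overlap, with 8 genes lower on EPA/DHA (Ubd to Cd74) and 8 higher (Thrsp to Idh3g).

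A set of mitochondrial genes rose on EPA/DHA. Of 270 tested genes in 9 lists that cover the respiratory chain, its assembly, the citric acid cycle, pyruvate dehydrogenase, fatty acid oxidation, branched-chain amino acid breakdown, protein import and the mitochondrial ribosome, 37 were called higher (13.7%, against 1.18% of all genes) and 0 lower. Mitochondrial carriers (1 of 21 called higher) and regulators of mitochondrial biogenesis (0 of 22) are not among the 9 lists. The lists were written with earlier results of these data known, so the share is no independent test of a rise in mitochondrial genes. In limma at an unadjusted p under 0.05, 156 of the 270 were higher and 2 lower. The median difference was 0.21, against 0.00 over all genes, and 245 of the 270 differences were positive. The mean level of the 270 genes was 9.84, 9.82, 9.90 and 9.94 in corn-oil replicates 1 to 4 and 10.01, 10.19, 10.09 and 10.10 in EPA/DHA replicates 1 to 4. Every EPA/DHA array lay above every corn-oil array, and the low-fat arrays lay at 9.94 to 9.98. EPA/DHA replicate 2, with raised Ucp1, had the highest mean. Without the 2 arrays of raised Ucp1 the median difference was 0.21. The number called higher was then 21, and 20 with the liver covariate (median 0.20). With any 1 of the 8 high-fat arrays left out it was 16 to 32, with a median of 0.19 to 0.23. Leaving out the 2 arrays did not even out the brown-fat genes Cidea and Cox8b between the diets. The part of brown-type cells in the mitochondrial rise was not tested.

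**Figure D3:**
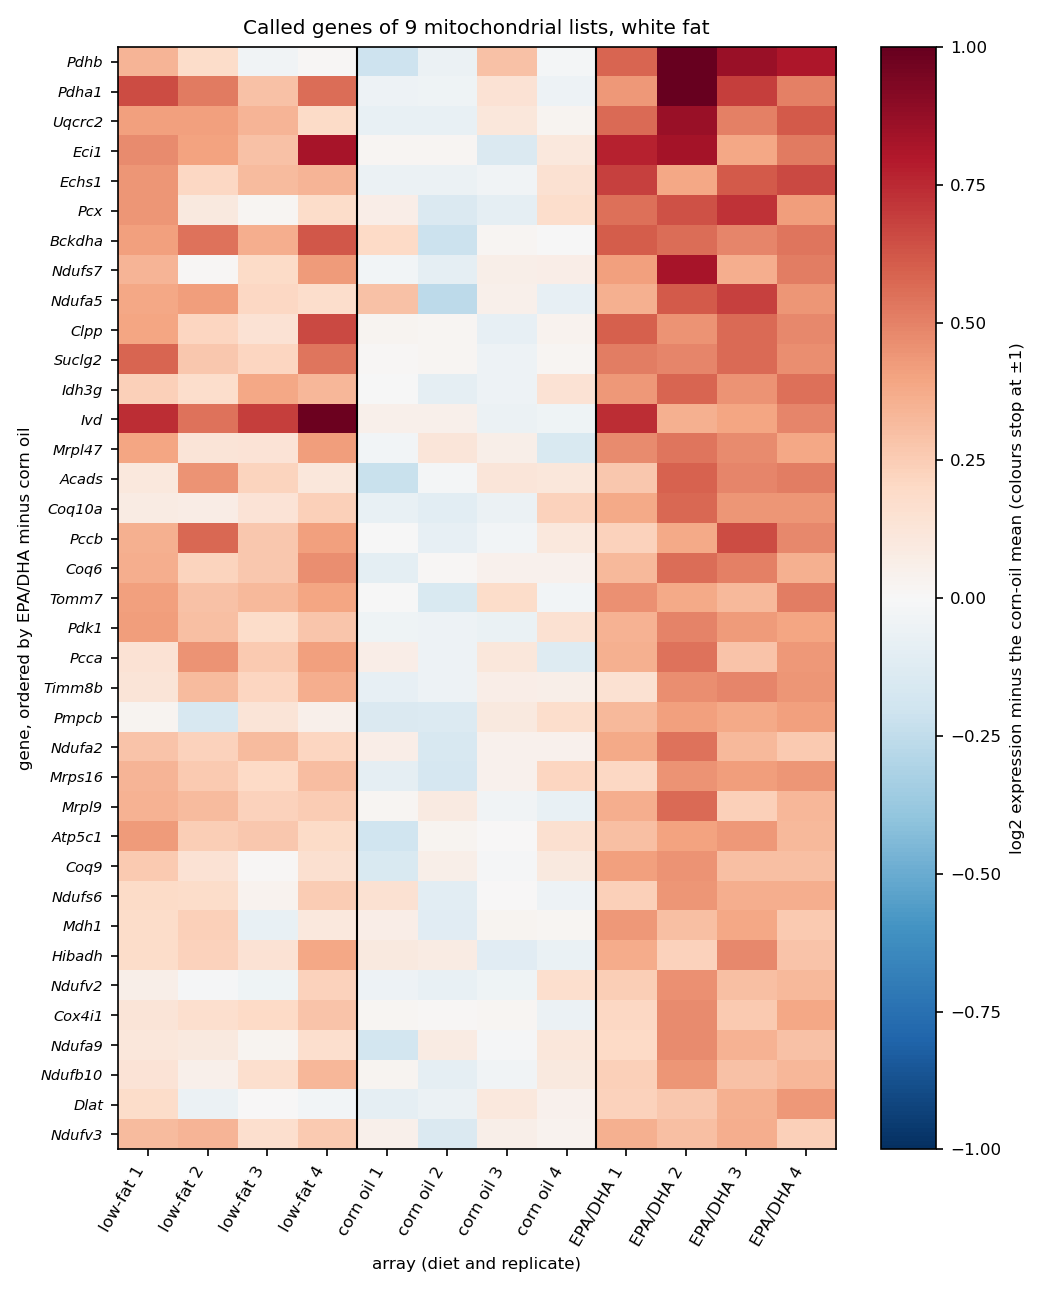
Log2 expression minus the corn-oil mean for the 37 called genes of the 9 mitochondrial lists (rows) in the 12 white fat arrays (columns), with colours that stop at 1 in either direction. The EPA/DHA columns are red for all 37 genes, and the low-fat means lie between those of corn oil and EPA/DHA for every gene shown except Ivd.

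Pyruvate dehydrogenase and its regulators had the highest share of calls of the 9 lists, 4 of 10 genes. Pdhb, the beta subunit of pyruvate dehydrogenase, read 9.43, 9.58, 9.94 and 9.62 on corn oil and 10.23, 10.66, 10.51 and 10.45 on EPA/DHA. All 4 EPA/DHA arrays were above the highest corn-oil array, replicate 3, for a difference of 0.82 ± 0.12 (adjusted p = 0.0109), and the low-fat arrays (9.61 to 9.98) overlapped the corn-oil range. Without the 2 arrays of raised Ucp1 the difference was 0.75 with an adjusted p of 0.0516. The alpha subunit Pdha1 (0.66 ± 0.12, adjusted p = 0.0221) and Dlat (0.32 ± 0.07, adjusted p = 0.0359), the acetyltransferase of the same complex, rose as well, and so did Pdk1, a kinase that switches the complex off (0.42 ± 0.06, adjusted p = 0.00842). The call of Pdha1 was lost in 4 of 12 fits that left out 1 array, those without corn-oil replicates 1, 2 and 4 and without EPA/DHA replicate 3 (adjusted p of 0.0562 to 0.0643), and that of Dlat in 6 of 12. Without the 2 arrays of raised Ucp1 only 1 gene of the list was called. Pdk4, another such kinase and a PPAR target, differed by 0.65 ± 0.47 (adjusted p = 0.587) and was not called.

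In the citric acid cycle all 15 differences were positive and 4 genes were called. Idh3g, a subunit of isocitrate dehydrogenase, read 12.30, 12.21, 12.25 and 12.45 on corn oil and 12.73, 12.89, 12.75 and 12.86 on EPA/DHA. The 2 ranges were apart by more than the spread within either diet, and the difference was 0.50 ± 0.06 (adjusted p = 0.00355). It was 0.53 (adjusted p = 0.00718) without the 2 arrays of raised Ucp1. The succinyl-CoA ligase subunit Suclg2 (0.51 ± 0.07, adjusted p = 0.00953), the pyruvate carboxylase Pcx (0.58 ± 0.10, adjusted p = 0.0205) and the malate dehydrogenase Mdh1 (0.34 ± 0.07, adjusted p = 0.0317) were the other 3. Mdh1 encodes the cytosolic form, and a second probe for it read near the floor and differed by -0.01. In fits without 1 array Idh3g and Suclg2 were called in all 12, Pcx in 9 and Mdh1 in 5. Citrate synthase, Cs, differed by 0.44 ± 0.14 and was not called (adjusted p = 0.148).

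In the respiratory chain 8 of 34 complex I subunits and 3 of 36 subunits of complexes II to V were called, all higher. Uqcrc2, a core subunit of complex III, read 12.09, 12.09, 12.28 and 12.19 on corn oil and 12.73, 13.03, 12.66 and 12.78 on EPA/DHA. EPA/DHA replicate 2 was highest, but the lowest EPA/DHA array still exceeded the highest corn-oil array, and the difference was 0.64 ± 0.08 (adjusted p = 0.00431). It was 0.57 (adjusted p = 0.0113) without the 2 arrays of raised Ucp1. Among complex I genes Ndufs7 (0.53 ± 0.11, limma adjusted p = 0.037) and Ndufa5 (0.52 ± 0.11, adjusted p = 0.0484) differed most among the called ones. Cox4i1 of complex IV (0.33 ± 0.06, adjusted p = 0.0182) and Atp5c1 of the ATP synthase (0.37 ± 0.07, adjusted p = 0.0335) passed too, the latter in only 4 of 12 fits that left out 1 array. The count of complex I calls depended on single arrays and was 1 to 7 of 34 with 1 high-fat array left out, though its median difference of 0.30 then kept to 0.26 to 0.32. Cox8b, a complex IV subunit typical of brown fat, had the largest difference of the list (1.27 ± 0.47) and was not called (adjusted p = 0.222). Of 35 assembly and cofactor genes 3 were called, all of them for coenzyme Q (Coq6, Coq9 and Coq10a). Coq6 differed by 0.43 ± 0.07 (adjusted p = 0.0113).

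Genes that build the organelle had calls as well. Of mitochondrial ribosomal proteins 4.17% were called higher and of import and protein quality genes 13.3%, against 1.18% of all genes. Of 72 mitochondrial ribosomal proteins 3 were called, Mrpl47 (0.47 ± 0.08, adjusted p = 0.0182), Mrps16 (0.38 ± 0.08, adjusted p = 0.0427) and Mrpl9 (0.37 ± 0.06, adjusted p = 0.0182), and 61 differences were positive, with a median of 0.14. Of 30 import and protein quality genes 4 were called, the protease subunit Clpp (0.52 ± 0.09, adjusted p = 0.0221), the import genes Tomm7 and Timm8b, and the processing peptidase subunit Pmpcb. These calls were unequal in stability, with Tomm7 and Clpp called in 12 and 6 of 12 fits without 1 array, Timm8b and Pmpcb in 5 and 4, and Mrpl47, Mrps16 and Mrpl9 in 11, 2 and 11. The import count was 1 without corn-oil replicates 1, 2 or 3, without EPA/DHA replicates 3 or 4 and without the 2 arrays of raised Ucp1. None of 22 regulators of mitochondrial biogenesis was called by limma, with 8 higher and 0 lower at an unadjusted p under 0.05. Ppargc1b, a coactivator of this program, differed by 0.57 ± 0.18 (adjusted p = 0.158). Its relative Ppargc1a differed by 0.38 ± 0.12 (adjusted p = 0.136), and the mitochondrial DNA factor Tfam by 0.14 ± 0.06 (adjusted p = 0.336).

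Breakdown of branched-chain amino acids, a mitochondrial pathway active in adipocytes, had 6 of 22 genes called higher and a median difference of 0.35. Bckdha, a subunit of the dehydrogenase that commits these amino acids to breakdown, read 10.38, 9.98, 10.21 and 10.19 on corn oil and 10.80, 10.75, 10.68 and 10.72 on EPA/DHA. The highest corn-oil array, replicate 1, was below the lowest EPA/DHA array, and the difference was 0.55 ± 0.08 (adjusted p = 0.00991). Echs1, an enoyl-CoA hydratase, differed by 0.59 ± 0.07 (adjusted p = 0.00454) and Ivd, the isovaleryl-CoA dehydrogenase, by 0.50 ± 0.10 (adjusted p = 0.0317). Both subunits of propionyl-CoA carboxylase were called, Pcca (0.40 ± 0.08, adjusted p = 0.0327) and Pccb (0.44 log2). Bcat2, the transaminase of the first step, just missed the threshold (0.66 ± 0.15, adjusted p = 0.0521). The count fell to 2 or 4 in 7 of the 8 fits without 1 high-fat array, was 6 without EPA/DHA replicate 2, and was 3 without the 2 arrays of raised Ucp1. Echs1 was called in all 12 fits without 1 array, and Ivd and Pcca in 5 each.

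Fatty acid oxidation had few calls, 10.5% of its 19 mitochondrial genes, against 1.18% of all genes called higher. The median difference of the 19 was 0.26, and 16 differences were positive. At an unadjusted p under 0.05 in limma, 10 were higher and 0 lower. Of 19 mitochondrial genes Eci1 (0.63 ± 0.12, adjusted p = 0.032), an isomerase for unsaturated fatty acids, and Acads (0.46 ± 0.10, adjusted p = 0.0457), the short-chain dehydrogenase, were called, each lost when any of several arrays was left out (called in 5 and 3 of 12 such fits). The count was 0 or 1 without any 1 of the 8 high-fat arrays and 0 with the liver covariate. Of 30 peroxisomal genes 4 were called higher, Eci3 (0.85 ± 0.16, adjusted p = 0.0262), Scp2 (0.49 ± 0.10, adjusted p = 0.0317), Crat (0.43 ± 0.09, adjusted p = 0.0477) and Pex19 (0.21 ± 0.05, adjusted p = 0.0493). Eci3 belongs to the same isomerase family as Eci1. It read 8.49, 8.59, 8.51 and 8.28 on corn oil and 9.41, 8.84, 9.55 and 9.47 on EPA/DHA. All EPA/DHA arrays were above all corn-oil arrays. In fits without 1 array the calls of Eci3, Scp2, Crat and Pex19 held in 5, 6, 2 and 2 of 12. The peroxisomal count was 0 without corn-oil replicates 1, 2 or 3 or EPA/DHA replicates 3 or 4, and 1 with the liver covariate. Of 24 PPAR target genes of fat none was called by limma, with 8 higher and 2 lower at an unadjusted p under 0.05. The receptors themselves differed by 0.25 ± 0.18 (adjusted p = 0.586) for Pparg and by 0.05 ± 0.04 (adjusted p = 0.667) for Ppara, which read near the floor in all 8 arrays.

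In fat synthesis and sugar use the rises were large but fewer. Thrsp, a nuclear protein (Spot 14) that goes with lipogenesis, read 11.47, 11.34, 11.14 and 11.56 on corn oil and 12.50, 12.49, 12.62 and 12.84 on EPA/DHA. The groups were far apart, the difference was 1.23 ± 0.14 (adjusted p = 0.00241), and the low-fat arrays lay between them (11.87 to 12.45). Its call held in all 12 fits without 1 array. Of the 21 genes of fatty acid synthesis only Thrsp and Pcx were called, although the median difference was 0.38. The acetyl-CoA carboxylase Acacb (1.27 ± 0.28, adjusted p = 0.0502) just missed the threshold, and the elongase Elovl6 (0.94 ± 0.39), the citrate lyase Acly (0.91 ± 0.32) and the fatty acid synthase Fasn (0.48 ± 0.22, adjusted p = 0.349) were farther from it. Scd1, a desaturase near the top of the scale, differed by -0.04 ± 0.12 (adjusted p = 0.927).

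Tkt, the transketolase of the pentose phosphate pathway, read 10.75, 10.60, 10.71 and 10.64 on corn oil and 11.64, 11.98, 11.53 and 11.88 on EPA/DHA. The 4 corn-oil values lay close together and well below the EPA/DHA values, and the difference was 1.09 ± 0.16 (adjusted p = 0.00953). Gpd2, the mitochondrial glycerol phosphate dehydrogenase, read 8.45, 8.42, 8.63 and 8.88 on corn oil and 9.44, 10.34, 9.62 and 9.73 on EPA/DHA. EPA/DHA replicate 2 was highest, the groups did not overlap, and the difference was 1.19 ± 0.19 (adjusted p = 0.0148), or 1.10 (adjusted p = 0.0115) without the 2 arrays of raised Ucp1. Pfkl, a phosphofructokinase of glycolysis (0.63 ± 0.12, adjusted p = 0.0276), and Slc2a4, the insulin-responsive glucose transporter (0.50 ± 0.10, adjusted p = 0.0409), were each the only called member of their list, of 16 and 26 genes. Their shares of 6.25% and 3.85% rest on 1 call each, against 1.18% of all genes called higher and 2.34% in either direction. The call of Slc2a4 held in 4 of 12 fits without 1 array, and that of Pfkl in 7. A second probe for Pfkl read near the floor and differed by -0.01. Ffar4, the receptor of long-chain fatty acids named above, read 9.77, 9.95, 9.93 and 10.07 on corn oil and 10.47, 10.22, 10.50 and 10.64 on EPA/DHA. Every EPA/DHA array exceeded every corn-oil array, and the difference was 0.53 ± 0.09 (adjusted p = 0.0163). It lost its call only without EPA/DHA replicate 3 (0.52, adjusted p = 0.0521).

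Several of the largest rises lay in other metabolic genes. Sfxn1, a mitochondrial serine transporter, read 11.61, 11.67, 11.67 and 11.72 on corn oil and 12.78, 12.64, 12.53 and 12.67 on EPA/DHA. The corn-oil values lay close together, all EPA/DHA values were higher, and the difference was 0.99 ± 0.10 (adjusted p = 0.00141), the only call among 21 carriers and sideroflexins. That is 4.76% of the list, from 1 gene, against 1.18% of all genes called higher. Nat8l, which makes N-acetylaspartate, differed by 0.96 ± 0.13 (adjusted p = 0.0063), and the low-fat arrays (8.81 to 9.20) overlapped the lower end of EPA/DHA (8.85 to 9.42). S100a1, a calcium-binding protein, read 11.07, 10.88, 10.91 and 11.16 on corn oil and 11.92, 11.91, 11.65 and 11.95 on EPA/DHA. EPA/DHA replicate 3 was the lowest of its group but above every corn-oil array, and the difference was 0.85 ± 0.09 (adjusted p = 0.00161). Fmo1, a flavin monooxygenase (0.85 ± 0.13, adjusted p = 0.0109), Adig, the adipogenin of adipocytes (0.85 ± 0.11, adjusted p = 0.00642), Uck1, a uridine kinase (0.85 ± 0.12, adjusted p = 0.00953), and Mcrip2 (0.77 ± 0.07, adjusted p = 0.00141) were called in all 12 fits without 1 array. The carboxylesterase Ces1f had the largest called rise (1.49 ± 0.30, adjusted p = 0.0378) but was called in only 3 of 12 such fits, and Parm1 (1.12 ± 0.23, adjusted p = 0.0411) in 5. Ces1d, another carboxylesterase with activity on triglyceride, read 13.39 to 13.89 on corn oil and 14.19 to 14.34 on EPA/DHA, near the top of the scale, and differed by 0.65 ± 0.11 (adjusted p = 0.0182). Probes of the Ces1 genes may share targets, since these genes are close copies.

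Amino acid and redox genes moved in both directions. Asns, the asparagine synthetase, read 10.24, 10.37, 10.06 and 10.35 on corn oil and 11.51, 10.74, 10.99 and 11.12 on EPA/DHA. All 4 EPA/DHA values were the higher ones, the difference was 0.84 ± 0.14 (adjusted p = 0.0184), and the call was lost without corn-oil replicate 3 (0.77, adjusted p = 0.0508) and without EPA/DHA replicate 4 (0.83, adjusted p = 0.055). In the list of 25 genes that are targets of ATF4 or make serine, it was the only one called higher, and Mthfd2 (-0.43 ± 0.09, adjusted p = 0.0461) and Aldh18a1 (-0.21 ± 0.03, adjusted p = 0.0129) were called lower. Of 43 antioxidant genes Gsta4, a glutathione transferase for lipid aldehydes (0.65 ± 0.06, adjusted p = 0.00141), and Prdx3, a mitochondrial peroxidase (0.42 ± 0.09, adjusted p = 0.0427), rose, and Sod3, the extracellular superoxide dismutase, fell (-0.48 ± 0.07, adjusted p = 0.00919). In eicosanoid and epoxide metabolism Ptgr2 rose (0.35 ± 0.07, adjusted p = 0.0436) and Ephx1, an epoxide hydrolase, fell. Ephx1 read 10.87, 10.69, 10.70 and 10.59 on corn oil and 9.86, 10.003, 9.59 and 9.50 on EPA/DHA. All EPA/DHA arrays were below all corn-oil arrays, and the difference was -0.98 ± 0.12 (adjusted p = 0.00441). Aldh18a1, Gsta4, Sod3 and Ephx1 were called in all 12 fits without 1 array, but Mthfd2, Prdx3 and Ptgr2 in only 2, 3 and 2.

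The 3 largest falls were in genes that were high on corn oil and whose EPA/DHA range overlapped that of the low-fat arrays. Ubd (FAT10), which tags proteins for the proteasome and responds to inflammatory cytokines, read 10.14, 10.55, 10.18 and 11.04 on corn oil and 8.11, 8.25, 7.62 and 7.85 on EPA/DHA. The groups were far apart, the low-fat arrays (7.66 to 8.05) lay within the EPA/DHA range, and the difference was -2.52 ± 0.20 (adjusted p = 0.000922). No other gene of its list of 22 for class I presentation and the immunoproteasome was called, and H2-K1 (-0.27) and Psmb8 (-0.18), both of class I presentation, were not. Tph2, which makes serotonin from tryptophan and is best known from neurons, read 10.01, 10.37, 10.45 and 11.13 on corn oil and 7.45, 8.91, 7.79 and 8.16 on EPA/DHA. EPA/DHA replicate 2 was the highest of its group, the groups did not overlap, and the difference was -2.41 ± 0.33 (adjusted p = 0.00672), beside 7.28 to 8.12 on the low-fat diet. Other serotonin genes did not follow it. Pts, which serves synthesis of the tetrahydrobiopterin cofactor (0.45 ± 0.06, adjusted p = 0.00961), and Maob, a monoamine oxidase (0.33 ± 0.06, adjusted p = 0.0182), rose, and Ddc, the enzyme of the next step, read near the floor (7.28 and 7.21). Both Ubd and Tph2 were called in all 12 fits without 1 array.

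Ribonucleases associated with eosinophils fell together, 3 of the 4 tested, with a median difference of -1.02. Rnase2a read 9.70, 9.26, 10.02 and 8.89 on corn oil and 7.18, 8.22, 7.58 and 7.50 on EPA/DHA. EPA/DHA replicate 2 was again the highest of its group but lay below every corn-oil array, and the difference was -1.85 ± 0.26 (adjusted p = 0.0093). Ear3 read 10.74, 10.75, 10.97 and 10.84 on corn oil and 9.40, 9.78, 9.24 and 9.37 on EPA/DHA. The corn-oil values lay close together, the EPA/DHA values all below them, and the difference was -1.38 ± 0.12 (adjusted p = 0.00126). Ear10 differed by -0.67 ± 0.10 (adjusted p = 0.0112). Genes of this family are close copies, so their probes may not tell them apart. Of 8 markers of eosinophils and neutrophils none was called, with 1 lower at an unadjusted p under 0.05, and the eosinophil genes Prg2 (7.22 and 7.17) and Il5ra (7.12 and 7.14) read near the floor on both diets. Retnla, a secreted protein of the resistin family and a mark of alternatively activated macrophages, read 12.86, 12.73, 13.03 and 12.84 on corn oil and 11.49, 12.004, 11.91 and 12.14 on EPA/DHA. Corn-oil arrays were all higher than EPA/DHA arrays, and the difference was -0.98 ± 0.14 (adjusted p = 0.00953), with the low-fat arrays between them at 12.23 to 12.71. The part that the number of macrophages (8.76 to 9.36 against 9.04 to 9.45 for their markers) had in these falls was not tested.

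Genes of class II antigen presentation, which shows peptides to helper T cells, fell in part. Of 18 tested 6 were called lower and 0 higher (33.3%, against 1.17% of all genes called lower), with a median difference of -0.32, and in limma at an unadjusted p under 0.05 there were 8 lower and 0 higher. H2-DMa, a subunit of the peptide loading catalyst, read 9.62, 9.54, 9.66 and 9.87 on corn oil and 8.83, 8.97, 8.74 and 9.06 on EPA/DHA. All EPA/DHA arrays were below all corn-oil arrays, the low-fat arrays read 8.95 to 8.99, and the difference was -0.77 ± 0.08 (adjusted p = 0.00141). Its partner genes H2-DMb1 (-0.89 ± 0.12, adjusted p = 0.00672) and H2-DMb2 (-0.90 ± 0.09, adjusted p = 0.00161) are near-identical copies that the probes may not separate. Cd74, the invariant chain that guides class II molecules to the endosome, read 12.99, 12.76, 12.89 and 12.85 on corn oil and 11.89, 12.24, 11.81 and 11.99 on EPA/DHA. The groups did not overlap, the low-fat arrays (12.05 to 12.58) lay from the upper EPA/DHA range to just below corn oil, and the difference was -0.89 ± 0.12 (adjusted p = 0.00555). The other probes of Cd74 were called as well (-0.81 and -0.72). The antigen-presenting chains H2-Eb1 (11.99 ± 0.16 on corn oil and 11.17 ± 0.29 on EPA/DHA, SD, n = 4; difference -0.82 ± 0.14, limma adjusted p = 0.0184) and H2-Ab1 (12.49 ± 0.10 and 11.74 ± 0.32; difference -0.75 ± 0.16, limma adjusted p = 0.0396) passed. H2-Aa did not (-0.63 ± 0.19, adjusted p = 0.127), nor did the master regulator Ciita (-0.41 ± 0.11, adjusted p = 0.0915), and both had groups that did not overlap. The count was 5 or 6 in each fit without 1 high-fat array, 5 without the 2 arrays of raised Ucp1 and 5 with the liver covariate.

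Among the cells that carry class II in fat are macrophages, dendritic cells and B cells. Their marker lists had no call among 23, 9 and 5 genes, with medians of -0.203, 0.015 and 0.026 and 3, 4 and 0 lower genes at an unadjusted p under 0.05. The dendritic list averaged 7.43 to 7.50 on corn oil and 7.40 to 7.50 on EPA/DHA, and the B cell list 7.19 to 7.30 and 7.17 to 7.39. The part of cell number in the class II falls was not tested.

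Promoters of 3 called class II genes are shown because class II genes are known to share an upstream block of motifs, of which an X box and a Y box are parts. They are RefSeq sequences of build GRCm38.p6, 150 bases that end just before the start of the gene, all on the plus strand, at chr17:34153041-34153190 for H2-DMb1, chr17:34145099-34145248 for H2-DMb2 and chr17:34305717-34305866 for H2-Eb1. Capitals mark AACNGATGATGCT, the longest stretch that the 3 promoters share with 1 free base (N), which resembles an X box, and ATTGG, the core of a Y box (CCAAT on the other strand).
H2-DMb1: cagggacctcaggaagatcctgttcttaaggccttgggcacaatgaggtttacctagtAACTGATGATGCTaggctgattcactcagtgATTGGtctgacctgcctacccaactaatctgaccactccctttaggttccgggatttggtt
H2-DMb2: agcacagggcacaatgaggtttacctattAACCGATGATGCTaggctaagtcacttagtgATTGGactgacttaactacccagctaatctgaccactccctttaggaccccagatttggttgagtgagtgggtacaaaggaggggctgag
H2-Eb1: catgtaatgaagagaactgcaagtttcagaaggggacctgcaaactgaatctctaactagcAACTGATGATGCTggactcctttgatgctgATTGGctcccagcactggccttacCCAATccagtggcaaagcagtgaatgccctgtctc
The first motif started at -92, -121 and -89 from the start site. Both strands of the windows from 250 bases before to 50 after the start were searched. The letters AACNGATGATGCT were in 4 of 27025 promoters, and in 3 of them an ATTGG followed within 40 bases. Those 3 are the genes shown, out of 4 called class II genes whose promoter was in the table. The letters were taken from these promoters, so their rarity elsewhere is no evidence of a shared control, and H2-DMb1 and H2-DMb2 are near-identical copies. ATTGG alone was in 37.9% of all promoters.

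Few matrix genes were called. Of 23 collagens 2 (8.7%, against 1.17% of all genes) were called lower, Col16a1 and Col5a1 (-0.47 ± 0.09, adjusted p = 0.0325), and 19 of the 23 differences were negative (median -0.12). Col16a1 read 9.71, 9.50, 9.56 and 9.81 on corn oil and 8.62, 8.77, 8.31 and 8.50 on EPA/DHA. The groups did not overlap, the low-fat arrays (8.35 to 8.66) lay within the EPA/DHA range, and the difference was -1.09 ± 0.10 (adjusted p = 0.00141). Major collagens such as Col1a1 (-0.29 ± 0.09, adjusted p = 0.139) and Col3a1 (-0.02 ± 0.15) were not called. Pcolce2, which aids the trimming of procollagen, fell by 0.99 (SE 0.12, limma adjusted p = 0.00344), and Serpinh1, a collagen chaperone, was the only call among 42 other matrix genes (-0.50 ± 0.10, adjusted p = 0.0306), a share of 2.38% against 1.17% of all genes called lower and 2.34% called in either direction. Col16a1 was called in all 12 fits without 1 array, Col5a1 in 4 and Serpinh1 in 6. The count of 42 other matrix genes was 0 without corn-oil replicates 2 or 3 or EPA/DHA replicates 1, 3 or 4. Gpc1, a heparan sulfate proteoglycan, read 11.17, 11.05, 11.13 and 11.34 on corn oil and 10.03, 10.48, 10.07 and 10.09 on EPA/DHA. No EPA/DHA array reached a corn-oil array, and the difference was -1.01 ± 0.19 (adjusted p = 0.0306), called in 5 of 12 fits without 1 array. Endothelial markers were lower in the same arrays (9.49 to 9.54 against 9.66 to 9.76), and their part in the matrix falls was not tested.

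Sfrp5, an adipokine that binds Wnt ligands, read 9.05, 8.51, 8.97 and 8.72 on corn oil and 7.58, 7.63, 7.84 and 7.71 on EPA/DHA. The groups did not overlap, and the difference was -1.12 ± 0.17 (adjusted p = 0.0123), or -1.13 with an adjusted p of 0.0516 without the 2 arrays of raised Ucp1. Ccn5, a Wnt-induced secreted protein, differed by -0.89 ± 0.10 (adjusted p = 0.00274). They were the 2 calls among 31 Wnt genes (6.45%, against 1.17% of all genes called lower), whose median difference was 0.01. Lbp, the lipopolysaccharide binding protein, read 10.36, 10.42, 10.76 and 11.004 on corn oil and 8.58, 9.24, 9.46 and 9.27 on EPA/DHA. Corn-oil values were all above EPA/DHA values, and the difference was -1.50 ± 0.27 (adjusted p = 0.0221). Its call was lost without corn-oil replicate 3 (adjusted p = 0.0585), corn-oil replicate 4 (0.0563) or EPA/DHA replicate 4 (0.055). Hp, the haptoglobin, differed by -0.89 ± 0.16 (adjusted p = 0.0262). Lbp and Hp are also made by liver, and without the 2 arrays of raised Ucp1 neither was called (adjusted p = 0.0837 and 0.107). With the liver covariate Lbp was called (-1.55, adjusted p = 0.0395) and Hp was not (-0.87, adjusted p = 0.0566).

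Of Mest and Lep, which track fat mass, Mest passed with only some of its probes and Lep did not pass. The reported probe of Mest, a marker of adipose expansion, read 11.17, 10.19, 11.44 and 11.22 on corn oil and 8.10, 9.95, 9.65 and 9.18 on EPA/DHA. Corn-oil replicate 2 was low, but every EPA/DHA array lay below it, and the difference of -1.78 ± 0.50 (adjusted p = 0.105) did not reach the threshold. The other 2 probes of Mest were called lower in the same fit, at -1.97 ± 0.41 (adjusted p = 0.0409) and -1.32 ± 0.28 (adjusted p = 0.0408). Leptin differed by -0.57 ± 0.28 (adjusted p = 0.374), and the chemokine genes Ccl8 (-1.16 ± 0.35, adjusted p = 0.134) and Ccl7 (-1.05 ± 0.27, adjusted p = 0.0835) did not pass either.

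Cell division and lysosomal genes had a few small falls. Of cell cycle genes and of lysosomal genes 8.82% were called lower, against 1.17% of all genes. Of caveolae and septin genes 12.5% were. Of 34 cell cycle genes 3 were called lower, Tk1 (-0.35 ± 0.04, adjusted p = 0.00319), Kif22 (-0.27 ± 0.05, adjusted p = 0.0283) and Bub1b (-0.21 ± 0.05, adjusted p = 0.0494), and 31 of 34 differences were negative, with 20 lower and 0 higher at an unadjusted p under 0.05. Probes of this list read low, as Tk1 did (7.52 to 7.66 on corn oil and 7.19 to 7.33 on EPA/DHA). Without EPA/DHA replicate 2 the count was 8, and 1 or 2 without any other high-fat array. Tk1 was called in all 12 fits without 1 array, Kif22 in 6 and Bub1b in 1. Of 34 lysosomal genes Ctsa (-0.58 ± 0.12, adjusted p = 0.0368), Glb1 (-0.41 ± 0.08, adjusted p = 0.0313) and Man2b1 (-0.31 ± 0.07, adjusted p = 0.0484) were called, in 4, 5 and 1 of 12 fits without 1 array. The lysosomal count was 0 without any 1 corn-oil array, without EPA/DHA replicates 3 or 4 and with the liver covariate, and other probes of Ctsa and Glb1, near the floor, had the opposite sign. Septin9 (-0.54 ± 0.09, adjusted p = 0.015) and Septin11 (-0.30 ± 0.06, adjusted p = 0.0368) fell among 16 genes of caveolae and septins and were called in 12 and 6 of 12 fits without 1 array, but neither was called without the 2 arrays of raised Ucp1. The muscle markers Pvalb (-0.29 ± 0.05, adjusted p = 0.0141) and Ryr1 (-0.13 ± 0.03, adjusted p = 0.0312) and the elastase Cela1 (-0.87 ± 0.13, adjusted p = 0.0109) were called lower, Ryr1 in only 5 of 12 fits without 1 array, while other genes of their lists, such as Atp2a1 (0.05) and Cela2a (0.01), were not.

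Other genes of the largest falls belonged to no list. Nup210, a nuclear pore protein, read 8.54, 8.50, 8.27 and 8.91 on corn oil and 7.42, 7.74, 7.49 and 7.40 on EPA/DHA. All EPA/DHA arrays were below all corn-oil arrays, and the difference was -1.04 ± 0.12 (adjusted p = 0.00291). Mylk, the myosin light chain kinase, differed by -1.01 ± 0.17 (adjusted p = 0.0184) and lost its call without EPA/DHA replicate 3 (adjusted p = 0.0524). Gask1b (-0.96 ± 0.16, adjusted p = 0.0182) lost its call without the same array (adjusted p = 0.0538), and Lipf, a lipase (-1.09 ± 0.23, adjusted p = 0.0464), was called in 3 of 12 fits without 1 array. Further actin and adhesion genes, chosen after their values were seen, were called lower beside Mylk. They were Palld (-0.79 ± 0.13, limma adjusted p = 0.0184), Pdlim7 (-0.77 ± 0.15, adjusted p = 0.0311), Actn1 (-0.54 ± 0.09, adjusted p = 0.0185) and Fhod1 (-0.43 ± 0.05, adjusted p = 0.00344). The smooth muscle actin Acta2 read 13.54, 13.74, 13.98 and 13.72 on corn oil and 11.98, 13.69, 13.21 and 12.74 on EPA/DHA, with overlap between the groups, and differed by -0.84 ± 0.32 (adjusted p = 0.247). Acta2 had the largest fall of 12 pericyte and smooth muscle markers. Of these 12 markers 0 were called, 5 differences were positive and the median was -0.06. In limma at an unadjusted p under 0.05, 1 of them was higher and 2 were lower.

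**Figure D4:**
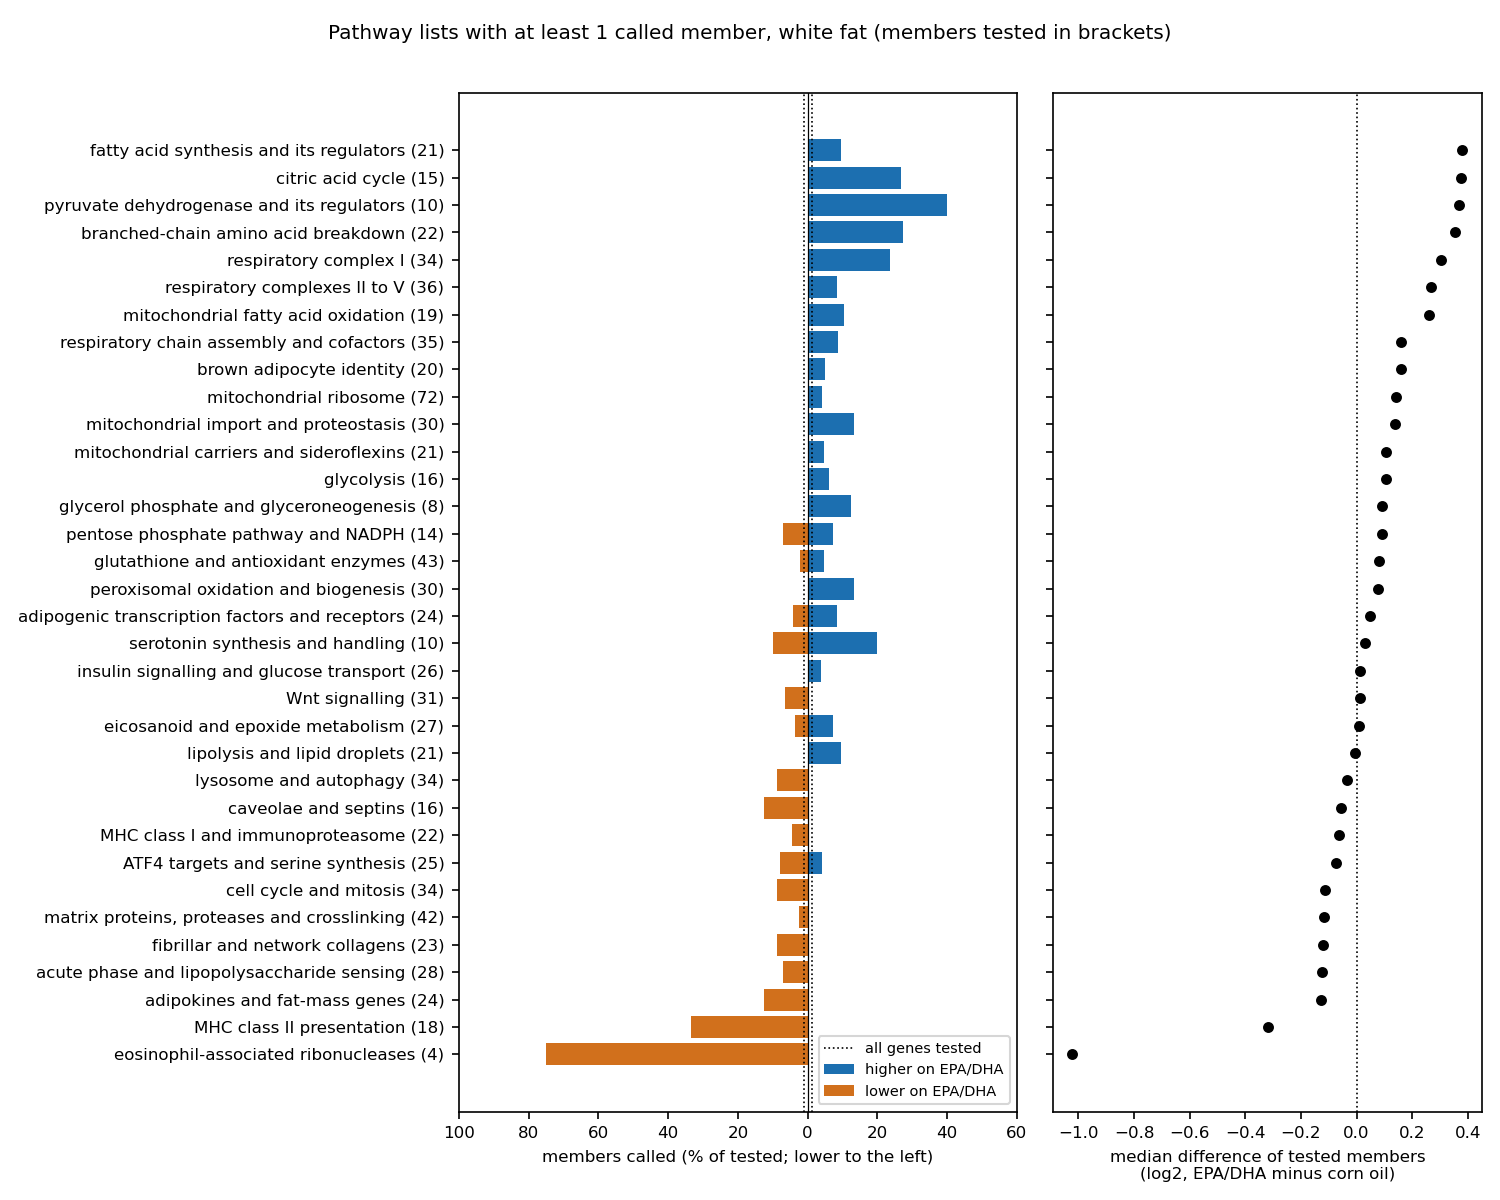
Percent of tested members called higher (right) or lower (left) on EPA/DHA for the 34 pathway lists with at least 1 called gene, and the median difference of all tested members, in log2 units, with dotted lines at the values of all genes. Lists of mitochondrial metabolism have calls to the right and positive medians, and class II presentation (6 of 18, median -0.32) and the eosinophil-associated ribonucleases (3 of 4, median -1.02) stand farthest to the left.

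In 16 of the 50 pathway lists no gene was called. Among them were interferon-responsive genes (34 tested, 1 higher and 5 lower at an unadjusted p under 0.05), cytokines and chemokines (33, with 1 and 10), cholesterol synthesis (20, with 1 and 0), endoplasmic reticulum stress (22, with 0 and 2), the cytosolic ribosome (43, with 0 and 4), the proteasome (27, with 0 and 0) and the circadian clock (17, with 2 and 0). These counts use 1 probe per gene. Other probes were called higher for Insig1, a regulator of cholesterol synthesis (0.58 ± 0.12, adjusted p = 0.0359, and 0.61 ± 0.12, adjusted p = 0.0306), and for Gpat3 of triglyceride synthesis (0.20 ± 0.04, adjusted p = 0.0409). A p-value above the threshold does not show that these genes were equal.

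The EPA/DHA effect was set against the same contrast in BAT by an interaction over 24 arrays. With 4 mice picked per diet, WAT and BAT may come from the same mice, but the labels do not tie their arrays together. The fit treats the arrays as independent, on which these p-values rest. The difference between the tissues was called by limma for 37 of the 13349 genes (0.277%), 36 of them among the 313 called in WAT, and 1148 had an unadjusted p under 0.05. The interaction holds the WAT difference of the same arrays as 1 of its terms, so such an overlap is partly built in. Ubd differed by -2.52 in WAT and by -0.16 in BAT (interaction -2.36 ± 0.22, adjusted p = 1.64e-05). In BAT it read near the floor on corn oil (7.32 to 7.45) and on EPA/DHA (7.07 to 7.41). So did Tph2, Rnase2a and Sfrp5, with BAT corn-oil means of 7.18, 7.15 and 7.19. A fall cannot be seen from such levels, so the interactions of these genes restate their falls in WAT. Ear3, Col16a1 and Nup210 had BAT corn-oil means of 7.57, 7.66 and 7.83. These are too low for a fall as large as in WAT to be seen. The class II genes H2-DMa, H2-DMb1 and H2-DMb2 had interactions of -0.63 to -0.79, and Ear3, Ear10 and Rnase2a of -0.66 to -1.79. Uqcrc2 (0.71 ± 0.12, adjusted p = 0.00967), Idh3g (0.57 ± 0.09, adjusted p = 0.00621) and Pdhb (1.14 ± 0.19, adjusted p = 0.00644) rose in WAT and differed by -0.07, -0.06 and -0.33 in BAT. For Cd74, Sfxn1 and the remaining called genes the difference between tissues did not pass, which does not show that the tissues respond alike. Stambpl1 (WAT -0.79, BAT 0.02), Shroom2 (-0.45 and -0.02) and Kcnj14 (-0.39 and 0.02) were among the smallest interaction p-values. Without BAT corn-oil replicate 1 the count of 37 was 23.

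**Figure D5:**
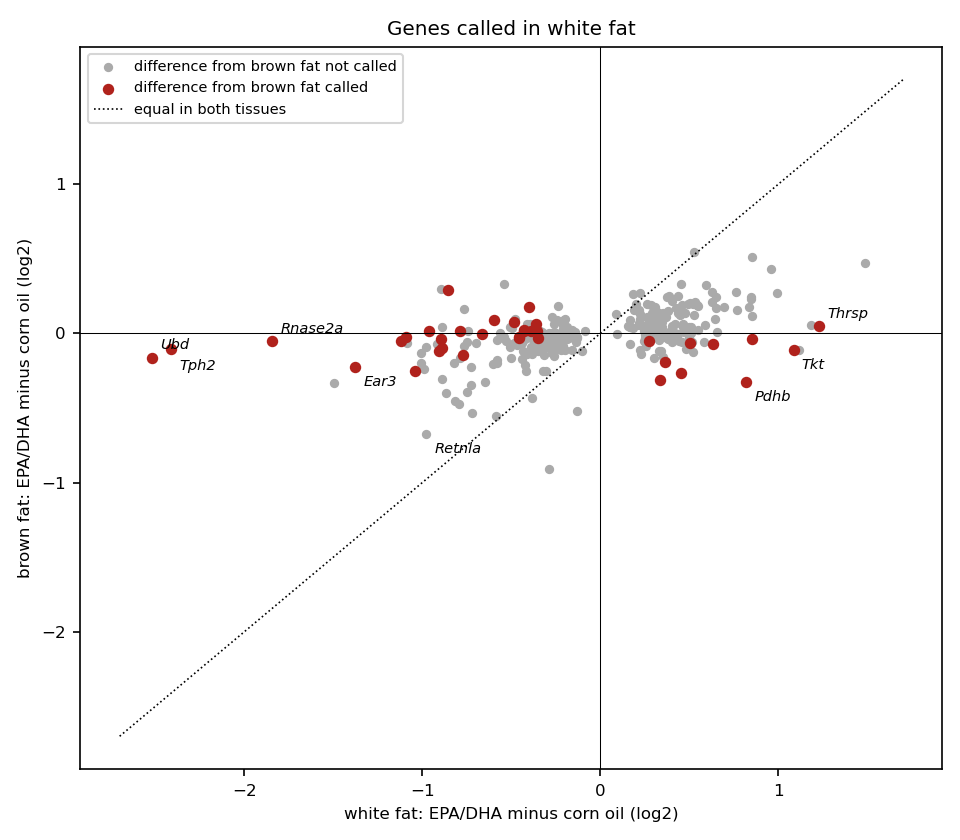
EPA/DHA minus corn oil in brown fat (vertical, log2) against the same difference in white fat (horizontal, log2) for the 313 genes called in white fat, with red points for the 36 whose difference between the tissues was called. The red points lie between -0.33 and 0.29 on the vertical axis, from Ubd at -2.52 to Thrsp at 1.23 on the horizontal axis, and the horizontal position was used to choose the genes. Ubd, Tph2, Rnase2a and Sfrp5 read near the floor in brown fat, where a fall cannot be seen. Ear3, Col16a1 and Nup210 read too low there for a fall as large as in white fat to be seen.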

How the data were processed

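RNA of 24 adipose samples, 1 array each, was measured on Illumina bead arrays. Per the submitters' processing notes the values were made with lumi 2.18.0. The deposited log2 values come normalised by the authors. Sorted values of any array differed from those of the others by at most 0.0069, as quantile normalisation over the 24 arrays gives, and whether the scale is plain log2 or a variance-stabilised one is not given in the sources used here. Of 45281 probes 34885 had 1 gene symbol, 18 had several and 10378 are unnamed here, and 34818 were matched to a RefSeq gene. Arrays carry no read depth, and their number limits the precision.

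Samples were grouped by their labels. The 12 WAT arrays were fitted with limma 3.58.1 in R 4.3.3 (lmFit and eBayes, two-sided), on the 27168 probes above the 40th percentile of mean level (7.11), with Benjamini-Hochberg adjustment and a threshold of 0.05. A gene stands for its probe with the highest mean, and 13349 genes were tested. The difference from BAT was an interaction over 24 arrays. The procedure was tested on simulated data. p-values measure the spread between these arrays, and WAT and BAT arrays may share mice. The mice were picked to stand for their group, so this spread may be narrower than that of mice not picked in this way.

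Genes were named by rule: the 15 largest rises and falls among called genes whose groups did not overlap, up to 4 called members of each list by smallest p, 8 fixed genes, and the 8 smallest adjusted p of the difference from BAT. Other genes named, called or not, were chosen after their values were seen. The comparison, the 67 gene lists and the rule were chosen with earlier results of these data known. Alternatives were other filters, sample sets, scalings and priors, array weights, a replicate block, a liver covariate and leaving out arrays. Counts per list without single arrays were added after seeing the data. Promoter sequences are from RefSeq, build GRCm38.p6.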

Additional observations from a re-analysis of the deposited data

Results flagged for a closer look

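Single arrays stood apart from the other 3 of their diet by Dixon's test in 22 of 274 groups looked at, where chance gives about 1 in 20. In EPA/DHA replicate 1 this was so for Mrps16 (9.38, the others 9.59 to 9.62), Timm8b (11.33, the others 11.62 to 11.66), Scp2 (13.79, the others 13.32 to 13.40) and Apoc1 (13.63, the others 12.51 to 12.54). In EPA/DHA replicate 2 this was so for Gpc1 (10.48, the others 10.03 to 10.09), Gpat3 (9.52, the others 9.90 to 9.97) and Ucp1 (10.63, the others 7.18 to 7.76). In EPA/DHA replicate 3 this was so for S100a1 (11.65, the others 11.91 to 11.95). In EPA/DHA replicate 4 this was so for Adipoq (14.42, the others 14.17 to 14.20). In corn-oil replicate 1 this was so for Kcnj14 (7.64, the others 7.74 to 7.76). In corn-oil replicate 2 this was so for Ndufv3 (12.28, the others 12.46 to 12.48), Ndufa2 (11.97, the others 12.17 to 12.20) and Ccn5 (7.84, the others 8.21 to 8.28). In corn-oil replicate 3 this was so for Suclg2 (8.81, the others 8.87 to 8.88), Pdha1 (11.22, the others 11.02 to 11.03) and Clpp (10.08, the others 10.18 to 10.19). In corn-oil replicate 4 this was so for Cox4i1 (13.39, the others 13.46 to 13.47), Coq10a (8.34, the others 8.01 to 8.05), Pdk1 (7.86, the others 7.64 to 7.67), Echs1 (11.53, the others 11.31 to 11.34), H2-DMb1 (9.89, the others 9.31 to 9.37) and Ucp1 (9.38, the others 7.11 to 7.18).

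The EPA/DHA effect differed between WAT and BAT by the limma interaction (adjusted p under 0.05) for 24 of the named genes. Values are the WAT difference minus the BAT difference in log2 units. It was negative for Ubd (-2.36), Tph2 (-2.31), Rnase2a (-1.79), Ear3 (-1.15), Sfrp5 (-1.07), Col16a1 (-1.06), Gask1b (-0.98), Ccn5 (-0.86), Stambpl1 (-0.81), Nup210 (-0.79), H2-DMb1 (-0.79), H2-DMb2 (-0.79), Ear10 (-0.66), H2-DMa (-0.63), Shroom2 (-0.43), Kcnj14 (-0.41) and Tk1 (-0.32). It was positive for Tkt (1.20), Thrsp (1.18), Pdhb (1.14), S100a1 (0.89), Uqcrc2 (0.71), Idh3g (0.57) and Atp5c1 (0.56). In WAT the first set was lower and the second set higher on EPA/DHA. Ubd, Tph2, Rnase2a and Sfrp5 read near the floor in BAT, so their values restate the falls in WAT. Ear3, Col16a1 and Nup210 (BAT corn-oil means of 7.57, 7.66 and 7.83) read too low there for a fall as large as in WAT to be seen.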

How the results depend on the processing

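The count of 313 genes became 198 with the liver covariate (85 higher) and 192 when both high-Ucp1 arrays were left out (74 lower). Without 1 WAT array at a time the count ran from 118 to 405, the higher genes from 55 to 219 and the lower genes from 63 to 186. It moved by over 1.5 times without corn-oil replicates 1 to 4 (170, 170, 155 and 198) and without EPA/DHA replicates 3 and 4 (118 and 137). The difference from BAT was called for 23 to 46 genes without 1 array. The other alternatives gave 230 (no filter) to 438 genes (filter at the 60th percentile), and 27 to 55 for the difference from BAT. Same-numbered corn-oil and EPA/DHA arrays correlated at 0.445, -0.0956, 0.110 and 0.0344 in their deviations from the group means, and only number 1 matched best with its own number. The low-fat array of number 1 correlated at 0.546 with corn oil and 0.498 with EPA/DHA of that number. Whether the arrays of number 1 share a factor was not tested. With the replicate block 267 genes were called (137 higher, 130 lower), and 27 for the difference from BAT. None of the 99 named called genes changed sign in any alternative, and 48 were called in all 12 fits without 1 array. Signs turned only for genes that were not called: Mzb1 (0 without raised Ucp1, -0.023 without EPA/DHA replicate 2, up to 0.127 without EPA/DHA replicate 1), Adipoq (-0.026 with the liver covariate, -0.059 without corn-oil replicate 2, -0.038 without EPA/DHA replicate 4, up to 0.06 without corn-oil replicate 4), Ucp1 (-0.319 without EPA/DHA replicate 2, and up to 1.054 without corn-oil replicate 4) and Scd1 (0.125 without raised Ucp1, 0.064 without EPA/DHA replicate 2, 0.018 without corn-oil replicate 4, down to -0.135 without corn-oil replicate 1). The causes were not tested. Probes near 7 and near the top of the scale limit what differences can be measured.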
